A study of Mus musculus with 4 samples.

Results

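The T cell receptor V and J segments were followed in RNA-seq of splenic Treg cells that lack or keep Setd2, the methyltransferase that places H3K36me3. Members were the rows of the expression table named Tra, Trb, Trd or Trg followed by v or j and a digit, which gave 214 of 24087 rows. Of these, 144 had FPKM (fragment numbers scaled to the length of the gene and the size of the library) of at least 1 in at least 2 libraries and were tested, among 11399 genes tested in all. They comprised 63 of 111 alpha V, 41 of 51 alpha J, 20 of 21 beta V, 13 of 13 beta J and 7 of 18 gamma or delta segments. The tested members were thus chosen by their FPKM in the 4 libraries, and the levels themselves are given as a description. Just inside the filter, Traj45 was 1.02 and 0 FPKM in CTRL and 2.83 and 0 in KO, and just outside it Trav11n was 1.16 and 0.842 in CTRL and 0.495 and 0.987 in KO. Of all members, 6 were at 0 in every library. Where a pair of values is given for a genotype, library 1 comes first.

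Treg cells were sorted as CD3+CD4+YFP+ from the spleens of C57BL/6 mice at steady state. KO cells came from Foxp3Cre-YFPSetd2f/f mice and CTRL cells from Foxp3Cre-YFPSetd2f/+ littermates, so that both genotypes carried the Foxp3Cre-YFP allele and at least 1 floxed Setd2 allele. There were 2 libraries per genotype, each pooled from 2 mice and made from about 1000000 cells. Cre was driven by Foxp3, which is switched on as T cells become Treg cells. The clones of the 2 pooled mice could not be told apart within a library.

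As background, every T cell builds its receptor genes in the thymus by joining 1 V segment to 1 J segment in the alpha and gamma chains, and V to D to J in the beta and delta chains. The V segment encodes most of the variable domain, the J segment encodes its last strand, and the joint between them forms the CDR3 loop that touches the peptide. The joined exon is spliced to a constant exon in the mRNA. In the alpha locus the delta segments lie inside the alpha segments, and successive rounds of joining move from the J segments far from the constant gene Trac toward those near it. Treg cells carry a diverse alpha beta repertoire.

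J segments are short exons, and most encode a Phe-Gly-X-Gly turn that is shared by antigen receptor chains. The sequences below are the germline exons as GENCODE vM21 gives them on GRCm38, all on the plus strand, with TTNGGNNNNGG (N is any base), which can encode that turn, in capitals. Trbj1-4 (chr6:41534811-41534861) and Trbj1-5 (chr6:41535084-41535133) were the 2 most abundant beta J segments. Trbj2-2 (chr6:41542957-41543007) had the lowest adjusted p of the segments, and Trbj2-7 (chr6:41543810-41543856) the smallest difference of the beta J segments. Traj2 (chr14:54217836-54217901) and Traj3 (chr14:54217292-54217357) were the 2 most abundant alpha J segments, and Traj18 (chr14:54200777-54200842) and Traj33 (chr14:54185358-54185414) are the J segments of 2 invariant receptors.
Trbj1-4: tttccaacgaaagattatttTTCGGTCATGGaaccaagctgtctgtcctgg
Trbj1-5: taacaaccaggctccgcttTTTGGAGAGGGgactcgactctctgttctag
Trbj2-2: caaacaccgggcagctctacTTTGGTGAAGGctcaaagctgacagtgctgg
Trbj2-7: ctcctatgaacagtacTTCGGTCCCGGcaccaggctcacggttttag
Traj2: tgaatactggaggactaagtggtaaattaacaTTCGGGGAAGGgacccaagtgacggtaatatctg
Traj3: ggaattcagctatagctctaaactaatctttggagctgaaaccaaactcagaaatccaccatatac
Traj18: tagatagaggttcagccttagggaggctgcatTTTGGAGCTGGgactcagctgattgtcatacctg
Traj33: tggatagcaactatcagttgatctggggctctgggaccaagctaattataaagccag
The motif was in 57 of the 70 J exons (81.4%) on either strand, against 1028 of 32851 promoter windows of 60 bases (3.13%). Traj3 and Traj33 lacked these letters, as did Traj41, Traj29, Traj20 and Traj19 among the tested alpha J segments, Trbj1-6 and Trbj1-7 among the beta J segments, and the 3 tested gamma J segments.

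Segments of the beta J class, and a set of alpha J segments, were lower in KO Treg cells, whereas the alpha V and the gamma or delta segments were centred near 0. In all, 18 members were below CTRL at an adjusted p under 0.05 (limma on log2(FPKM + 1), Benjamini-Hochberg over all genes) and 0 were above it. This was 12.5% of the members, against 4.65% of all genes tested that were lower and 5.1% that were higher. They were 9 alpha J, 6 beta J, 1 beta V, 1 alpha V and 1 gamma J segment. Of the tested members, 3 alpha J segments (Traj58, Traj44 and Traj35) reached 1 FPKM in the libraries of 1 genotype alone, so that their difference was fixed by the filter, and Traj58 was among the 18. Without such genes, 17 of 141 members (12.1%) were lower, against 4.68% of all genes. At an unadjusted p under 0.05, 47 members were lower and 9 were higher, against 18.4% and 16.3% of all genes. The median log2 fold change (KO minus CTRL) was -0.64 for beta J, -0.22 for alpha J, -0.21 for beta V, -0.04 for alpha V and -0.04 for gamma or delta segments, beside -0.02 for all genes tested.

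**Figure D1:**
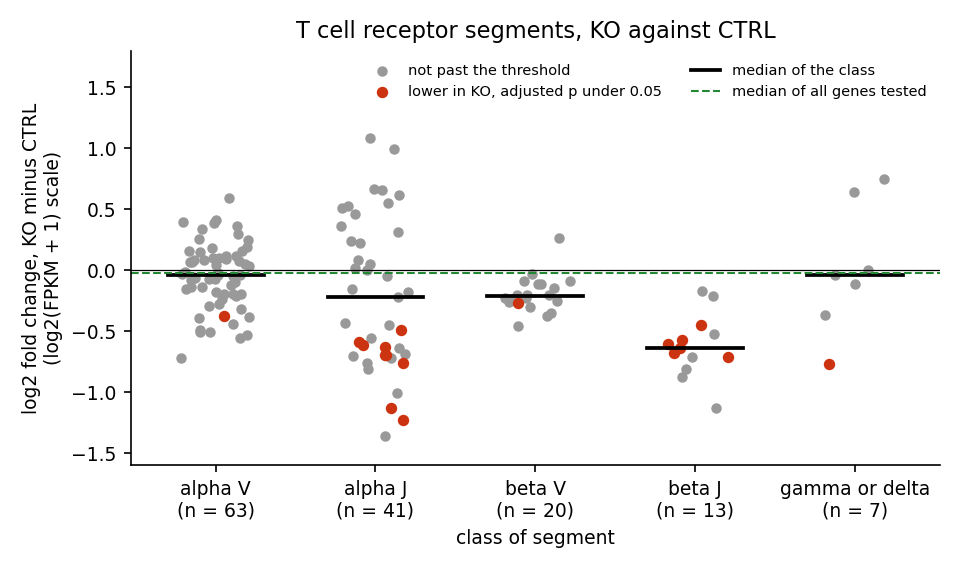
Log2 fold change (KO minus CTRL, log2(FPKM + 1) scale) of each tested segment by class, with the class median as a black line, the median of all genes tested as a dashed line and segments past the threshold in red. All 13 beta J segments lie below 0, while alpha V segments spread from -0.72 to 0.60 around a median of -0.04.

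The precision behind these values differed by class. Whole reads could be recovered from the steps of the FPKM values, and the median over the members of the mean number of reads per library was 761 for beta V, 116 for beta J, 78.0 for alpha V, 14.5 for alpha J and 15.2 for gamma or delta segments, against 1088 for all genes tested. The 4 libraries differed little in depth, from 28017143 recovered reads in CTRL 1 to 30579974 in KO 2. Outside the segments, recovered reads are known only up to a factor common to the 4 libraries, so these totals and the 1088 may be too low. Genes above 0 FPKM numbered 19100 in CTRL 1 and 15913 in CTRL 2, and 16410 and 16180 in KO. The cause of the higher number in CTRL 1 was not tested. The calls rested on the small spread between 2 libraries per genotype: without CTRL 1, CTRL 2, KO 1 or KO 2, each fit with 1 residual degree of freedom called 0 members, and all 18 stayed below 0. With limma-voom on the recovered reads, 4 of the 144 members were lower (3 beta J segments and Trbv13-3) and 0 higher. This was a smaller share than the 9.07% of all genes tested that were lower in that fit (7.58% were higher). Dividing each segment by the sum of its class takes out a shift of the whole class. With it, 4 of the 144 were lower and 3 higher, against 4.47% and 5.1% of all genes.

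The labels and the sort were checked in the same libraries. Setd2 was 23.4 and 25.3 FPKM in CTRL and 21.3 and 19.5 in KO (log2 fold change -0.24, limma adjusted p = 0.0970), so that the KO libraries were lower but the gene did not pass the threshold. The 8 markers of Treg and CD4 T cells were all tested and 0 passed in limma (1 lower and 1 higher at an unadjusted p under 0.05, against 18.4% and 16.3% of all genes), with Foxp3 at 121 and 140 FPKM in CTRL and 112 and 119 in KO. RNA of other cells was present. The sums of the B cell, plasma cell, myeloid and erythroid markers were higher in library 1 than in library 2 of each genotype, though not every single marker was. The summed FPKM of 9 B cell markers was 1750 and 1009 in CTRL and 2619 and 1692 in KO, mostly from Ighm and Igkc, so that the genotypes overlapped. Of the 8 tested, 4 were higher in KO at an unadjusted p under 0.05 (16.3% of all genes were) and 0 passed in limma. The sum of 7 myeloid markers was 166 and 98.2 in CTRL and 232 and 81.8 in KO, that of 5 plasma cell markers 98.2 and 75.7 in CTRL and 123 and 89.1 in KO, and that of 3 erythroid markers 12.2 and 2.22 in CTRL and 19.9 and 5.02 in KO. The sum of 2 CD8 T cell markers was 8.49 and 11.4 in CTRL and 10.6 and 11.3 in KO, with Cd8a at most 0.33 FPKM, and that of 6 markers of NKT, MAIT and NK cells 6.02 and 5.13 in CTRL and 5.01 and 6.33 in KO. The immunoglobulin V and J segments, the equivalent genes of B cells, summed to 901 and 453 FPKM in CTRL and 1233 and 662 in KO. Of 100 tested, 9 were higher and 2 lower past the threshold, against 5.1% and 4.65% of all genes. Their part in the results on the T cell receptor was not tested. As the samples are bulk RNA, fewer cells that use a segment and less of its RNA per cell cannot be told apart.

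Beta J segments were lower in KO as a class. The beta J segments lie in 2 clusters on chromosome 6, each with a D segment and a constant gene of its own. In all 13, both KO libraries were below both CTRL libraries, a pattern that 35.5% of all genes tested showed. Past the threshold were 6 of the 13 (46.2%), against 4.65% of all genes tested that were lower. Their FPKM added up to 1195 and 1213 in CTRL, against 772 and 865 in KO. The groups did not overlap, and KO was 0.680 times CTRL (exact permutation test, two-sided, p = 0.33, the smallest that 2 against 2 libraries can give).

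The most abundant beta J segment, Trbj1-4, was 176 and 159 FPKM in CTRL, against 97.7 and 110 in KO. Both KO libraries were far below both CTRL libraries, with a log2 fold change of -0.68 ± 0.09 (SE) and a limma adjusted p of 0.0346. Trbj1-5 was 174 and 154 FPKM in CTRL and 101 and 109 in KO (log2 fold change -0.64, limma adjusted p = 0.0346). Trbj2-2 was 80.1 and 84.3 FPKM in CTRL and 48.9 and 50.9 in KO (log2 fold change -0.71, limma adjusted p = 0.0299). These 3 were also called from the recovered reads, and in each of them the KO libraries lay closer to each other than to either CTRL library.

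The other 3 past the threshold were Trbj1-3, Trbj1-6 and Trbj2-1. Trbj1-3 was 78.0 and 76.8 FPKM in CTRL and 52.1 and 49.1 in KO (log2 fold change -0.60, limma adjusted p = 0.0306). Trbj1-6, which lacks the motif, was 128 and 122 in CTRL and 79.6 and 88.3 in KO (log2 fold change -0.57, limma adjusted p = 0.0346). Trbj2-1 was 114 and 130 in CTRL and 84.4 and 93.6 in KO (log2 fold change -0.45, limma adjusted p = 0.0467). Each held the same order, with no overlap between genotypes.

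The 7 beta J segments that did not pass had log2 fold changes from -1.13 to -0.17. Trbj2-4, at the low end, was 23.02 and 18.3 FPKM in CTRL and 5.78 and 13.2 in KO, and its KO libraries differed by more than 1 on the log2 scale (limma adjusted p = 0.0975). Trbj2-7 was 114 and 142 in CTRL and 112 and 113 in KO (limma adjusted p = 0.328), so that its lower CTRL library was just above the KO libraries. Trbj2-5 was likewise close, at 80.9 and 101 in CTRL and 78.6 and 77.1 in KO.

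**Figure D2:**
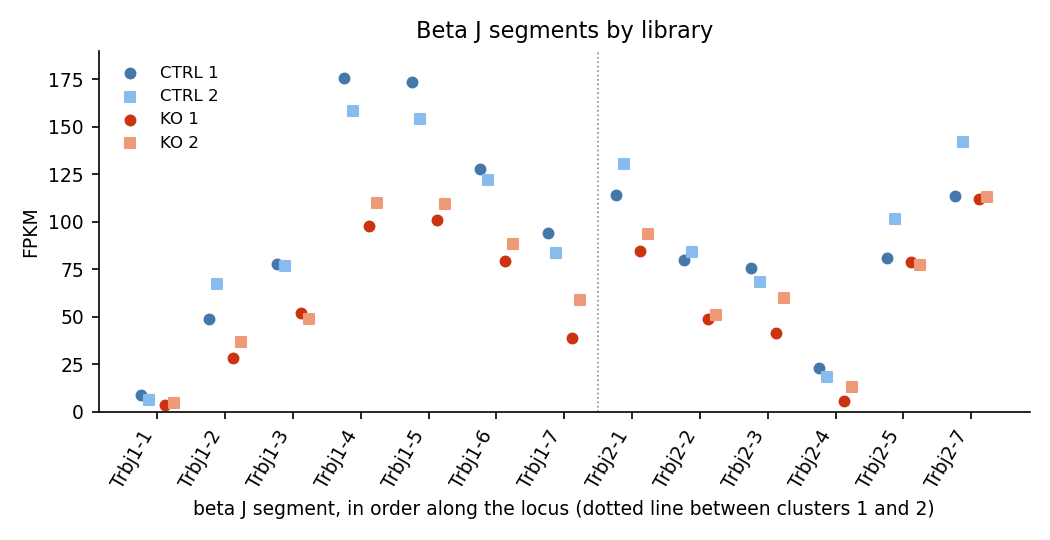
FPKM of the 13 beta J segments in each of the 4 libraries, in order along the locus, with CTRL in blue and KO in red. In every segment both KO libraries lie below both CTRL libraries, from 97.7 and 110 against 176 and 159 FPKM in Trbj1-4 to 112 and 113 against 114 and 142 in Trbj2-7.

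The first beta J cluster, Trbj1-1 to Trbj1-7, summed to 707 and 668 FPKM in CTRL and 401 and 457 in KO, or 0.624 times CTRL. The second, Trbj2-1 to Trbj2-7, summed to 487 and 545 in CTRL and 371 and 408 in KO, or 0.755 times CTRL. The first cluster thus took 59.2% and 55.1% of the beta J FPKM in CTRL and 51.9% and 52.9% in KO, without overlap (exact permutation test, two-sided, p = 0.33, the smallest possible). The beta D segments, which are joined between V and J and are outside the rule for members, were named after their values were seen. Trbd1 was 191 and 188 FPKM in CTRL and 175 and 214 in KO (log2 fold change 0.03), and Trbd2 was 65.3 and 45.4 in CTRL and 46.5 and 72.5 in KO (log2 fold change 0.09), so that the genotypes overlapped in both.

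Beta V segments were lower in KO by less. Of the 20 tested, 19 had a log2 fold change below 0 (against 53.8% of all genes), 14 had both KO libraries below both CTRL libraries (a pattern of 35.5% of all genes), and 1 passed the threshold (5.0%, close to the 4.65% of all genes). The summed FPKM was 1428 and 1425 in CTRL and 1242 and 1286 in KO, or 0.886 times CTRL (exact permutation test, two-sided, p = 0.33, the smallest possible). Trbv15 was 81.4 and 84.9 FPKM in CTRL and 68.2 and 69.4 in KO (log2 fold change -0.27 ± 0.05, limma adjusted p = 0.0462). Trbv13-3, which had the largest difference of the beta V segments, was 66.5 and 62.8 in CTRL and 51.2 and 42.9 in KO (log2 fold change -0.45, limma adjusted p = 0.0513), and it passed in the fit on recovered reads.

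The 3 most abundant of the 20 beta V segments held 32.5% to 35.8% of the FPKM of the class in each library. Trbv3 was the most abundant, at 181 and 193 FPKM in CTRL and 155 and 191 in KO, and took 12.5% to 14.9% of the class. Trbv13-2 was 145 and 157 FPKM in CTRL and 118 and 145 in KO. Trbv5 was 153 and 147 in CTRL and 130 and 124 in KO (log2 fold change -0.24, limma adjusted p = 0.0596). Trbv3 overlapped between genotypes, Trbv13-2 separated only narrowly and Trbv5 separated clearly without passing. Trbv20 and Trbv2 followed, with mean FPKM of 90.3 and 83.4 in CTRL and 78.2 and 78.4 in KO.

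The beta V segments at the ends of the range were of low or middle level. Trbv30 was 10.7 and 11.2 FPKM in CTRL and 9.13 and 7.41 in KO (log2 fold change -0.37), and the pseudogene Trbv24 was 5.71 and 6.41 in CTRL and 5.06 and 4.06 in KO (log2 fold change -0.35). Trbv12-1 was the only beta V segment with both KO libraries above both CTRL libraries, at 44.6 and 39.1 FPKM in CTRL and 48.3 and 52.5 in KO (log2 fold change 0.26, limma adjusted p = 0.104). Its neighbour Trbv12-2 was 52.0 and 52.7 in CTRL and 49.4 and 47.4 in KO. Trbv31, which lies past the constant genes in the opposite orientation, overlapped between genotypes (log2 fold change -0.03), as did Trbv13-1 (log2 fold change -0.09). The exons of Trbv4 and Trbv5 overlap those of an annotated lincRNA on the same strand, and 72.1% and 77.4% of their 50-base stretches were shared with another gene.

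The difference between genotypes was larger in the J than in the V segments of the same chain. For every 100 recovered reads on beta V segments there were 12.05 and 12.2 on beta J segments in CTRL and 8.94 and 9.65 in KO. For alpha the ratio was 19.01 and 21.01 in CTRL and 15.6 and 16.4 in KO. In both chains the genotypes did not overlap (exact permutation test, two-sided, p = 0.33 each, the smallest possible). The constant gene Trbc2, that of the second beta J cluster, was 1540 and 1405 FPKM in CTRL and 1668 and 1590 in KO (log2 fold change 0.15, limma adjusted p = 0.235). Per 100 FPKM of Trbc2, beta V segments had 92.8 and 101 in CTRL and 74.5 and 80.8 in KO, and beta J segments 77.6 and 86.3 in CTRL and 46.3 and 54.4 in KO. These ratios set the segments of both clusters against the constant gene of the second cluster alone. They therefore give no level relative to all beta constant RNA. Trac, Trbc1 and Trdc were not analysed here. A joined receptor read runs from V into J, with D between them in the beta chain, and these lie apart in the reference genome. J exons, at 46 to 66 bases of implied length, are shorter than the 150 bp reads. How reads of joined receptors were counted was not tested.

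**Figure D3:**
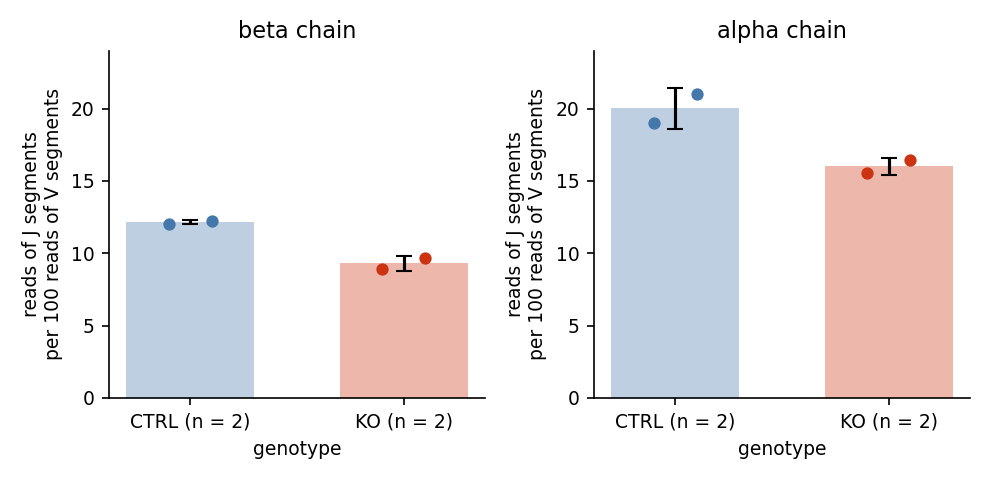
Recovered reads on J segments per 100 recovered reads on V segments of the same chain, by genotype, with bars for the mean of 2 libraries, error bars for the SD and points for libraries. The KO libraries lie below the CTRL libraries in both chains, at 8.94 and 9.65 against 12.05 and 12.2 for beta and 15.6 and 16.4 against 19.01 and 21.01 for alpha.

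Among alpha J segments, 9 of 41 were lower in KO past the threshold, or 8 of 38 (21.1%) without the 3 that the filter fixed. Both KO libraries were below both CTRL libraries in 17 (41.5%), which was near the 35.5% of all genes tested, and above them in 3, against 29.0% of all genes. Their summed FPKM was 547 and 566 in CTRL and 408 and 462 in KO, or 0.781 times CTRL (exact permutation test, two-sided, p = 0.33, the smallest possible). Traj3, the most abundant alpha J segment, was 117 and 118 FPKM in CTRL and 78.5 and 88.02 in KO (log2 fold change -0.49 ± 0.07, limma adjusted p = 0.0351). Traj2 was 77.1 and 70.9 in CTRL and 45.1 and 49.99 in KO (log2 fold change -0.63 ± 0.08, limma adjusted p = 0.0346). These were the alpha J segments with the most reads, 253 and 269 in CTRL and 183 and 206 in KO for Traj3.

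The other alpha J segments past the threshold were of lower level. Traj9 was 28.9 and 30.4 FPKM in CTRL and 20.02 and 16.045 in KO (log2 fold change -0.69), and Traj5 was 18.7 and 15.8 in CTRL and 10.96 and 9.55 in KO (log2 fold change -0.70). Traj13 was 11.2 and 12.2 in CTRL and 7.45 and 7.42 in KO (log2 fold change -0.59), and Traj19 was 6.497 and 6.63 in CTRL and 3.71 and 4.16 in KO (log2 fold change -0.62). In each of these 4 the KO libraries were below the CTRL libraries and the limma adjusted p ran from 0.0346 to 0.0379. Traj13 had 21 and 24 reads in CTRL and 15 and 15 in KO. Traj19 had 13 and 14 reads in CTRL and 8 and 9 in KO. Reads were more for Traj9 (55 and 61 in CTRL, 41 and 33 in KO) and Traj5 (38 and 34 in CTRL, 24 and 21 in KO). The limma fit on FPKM does not use read numbers, and the fit on recovered reads called 0 alpha J segments.

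The last 3 rested on fewer reads still. Traj37 had 10 and 11 reads in CTRL and 4 and 3 in KO (log2 fold change -1.23, limma adjusted p = 0.0306). Traj29 had 7 and 7 reads in CTRL and 3 and 4 in KO (log2 fold change -0.76, limma adjusted p = 0.0395). Traj58 had 4 and 3 reads in CTRL and 0 and 1 in KO (log2 fold change -1.13, limma adjusted p = 0.0486). Traj58 reached 1 FPKM in the CTRL libraries alone and so had to differ once it was tested, and the same held for Traj44, with 6 and 3 reads in CTRL and 1 and 0 in KO (limma adjusted p = 0.0563).

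Some alpha J segments had higher values in KO without passing. Traj26 was 3.56 and 5.29 FPKM in CTRL and 7.08 and 13.2 in KO (log2 fold change 1.00, limma adjusted p = 0.0908). Traj24 was 9.80 and 10.3 in CTRL and 13.7 and 18.6 in KO (log2 fold change 0.62, limma adjusted p = 0.0611). Traj35 had 2 and 0 reads in CTRL and 5 and 4 in KO and was tested through its KO libraries alone (log2 fold change 1.08). In all 3 both KO libraries were above both CTRL libraries. Traj38 (log2 fold change 0.67), had 1 and 9 reads in CTRL and 8 and 7 in KO, so that its values overlapped.

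The level of alpha J segments was lower the farther they lay from Trac. Across all 51 rows, mean FPKM and distance had a Spearman rho of -0.940, as a description over segments that share libraries and reads. The 7 segments within 12 kb of Trac had mean FPKM from 13.8 to 100 and a median of 25.3, the 11 from 12 to 24 kb a median of 10.9, the 12 from 24 to 36 kb a median of 5.501 and the 21 beyond that a median of 1.18. The fold change did not follow distance in the same way (Spearman rho 0.112 over the 41 tested segments).

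Summed by distance, with boundaries chosen after the levels were seen, the difference between genotypes was larger near Trac, a contrast that was not itself tested. Those within 12 kb summed to 344 and 341 FPKM in CTRL and 224 and 244 in KO, or 0.683 times CTRL, without overlap (exact permutation test, two-sided, p = 0.33, the smallest possible). Those beyond 12 kb summed to 203 and 225 in CTRL and 184 and 218 in KO, or 0.939 times CTRL, with overlap. Within 12 kb, 4 of the 7 passed as lower (Traj2, Traj3, Traj5 and Traj9), against 4.65% of all genes tested. Traj6 was 45.7 and 52.6 FPKM in CTRL and 23.8 and 36.4 in KO (log2 fold change -0.72, limma adjusted p = 0.0807) and Traj4 was 34.8 and 26.1 in CTRL and 19.3 and 21.04 in KO (log2 fold change -0.56, limma adjusted p = 0.0674). Traj7, between them and Traj9, was the exception, at 21.7 and 27.9 in CTRL and 26.4 and 22.9 in KO. Beyond 12 kb the direction was mixed. From 12 to 24 kb the 11 segments had 223 and 287 reads in CTRL and 193 and 280 in KO, with overlap. Between 24 and 36 kb the 12 segments had 124 and 128 reads in CTRL and 148 and 151 in KO, so that KO was higher. The 21 farther out had 72 and 70 reads in CTRL and 56 and 46 in KO, so that KO was lower without overlap.

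**Figure D4:**
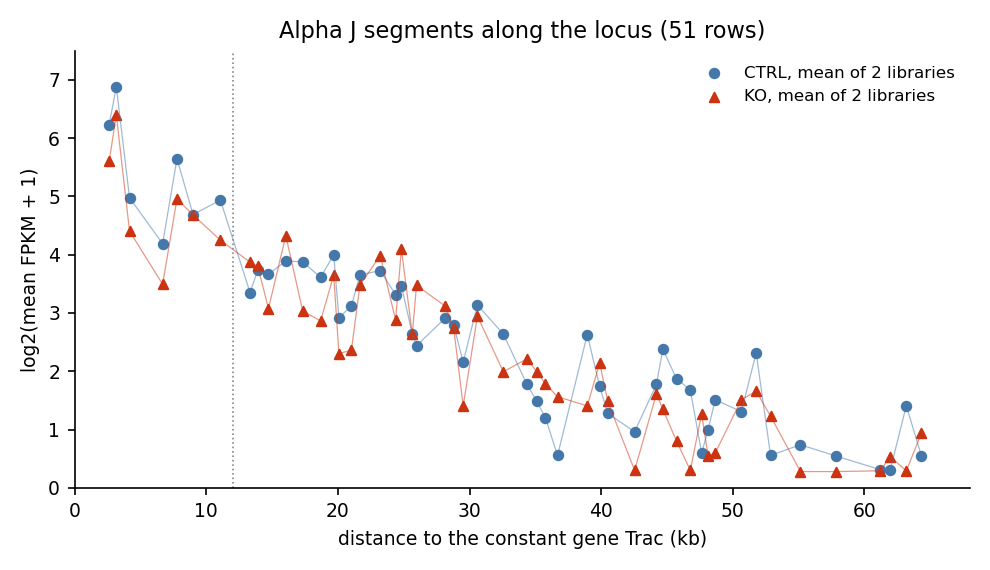
Mean level of the 51 alpha J segments in CTRL (circles) and KO (triangles) on the log2(FPKM + 1) scale against distance to Trac in kb, with a dotted line at 12 kb. Levels decline with distance in both genotypes, and 6 of the 7 segments within 12 kb have both KO libraries below both CTRL libraries.

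The alpha J segments that lack the motif were not a group apart by level, since they included both Traj3 and segments under 10 FPKM. Of these 6, 3 (Traj3, Traj19 and Traj29) were among the 9 that passed, as were 6 of the 35 with the motif, against 4.65% of all genes. Those with the motif summed to 408 and 427 FPKM in CTRL and 313 and 361 in KO, and those without it to 139 and 139 in CTRL and 95.1 and 101 in KO.

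Alpha V segments were at much the same level in both genotypes. Their summed FPKM was 526 and 491 in CTRL and 476 and 511 in KO (exact permutation test, two-sided, p = 0.667), with 36 of 63 log2 fold changes below 0. Both KO libraries were below both CTRL libraries in 16 segments (25.4%, against 35.5% of all genes) and above them in 8 (12.7%, against 29.0%). The 1 past the threshold was Trav14d-3-dv8, which can join to alpha or delta J segments, at 14.4 and 15.8 FPKM in CTRL and 11.1 and 11.7 in KO (log2 fold change -0.38 ± 0.08, limma adjusted p = 0.0481). Summed with its copies Trav14-3 and Trav14n-3, to which it is 97.1% and 96.7% identical, the values were 38.6 and 45.2 in CTRL and 31.5 and 34.4 in KO and did not pass (log2 fold change -0.34, limma adjusted p = 0.0810).

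The most abundant alpha V segment was Trav7-4, at 34.1 and 23.4 FPKM in CTRL and 28.2 and 30.5 in KO. Trav3-3 was 18.9 and 20.03 in CTRL and 17.01 and 20.97 in KO, Trav14-1 16.7 and 19.3 in CTRL and 16.1 and 18.0 in KO, and Trav4-4-dv10 15.5 and 17.2 in CTRL and 15.0 and 18.8 in KO. All of these overlapped between genotypes, with log2 fold changes from -0.07 to 0.05. Trav12-2 was set apart by 1 library, with 27.6 FPKM in KO 1 against 14.9 in KO 2 and 16.4 and 14.9 in CTRL.

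At the ends of the alpha V range, Trav17 was 5.10 and 6.77 FPKM in CTRL and 9.14 and 9.68 in KO (log2 fold change 0.60, limma adjusted p = 0.0548), and Trav10d 1.19 and 1.30 in CTRL and 2.13 and 1.78 in KO (log2 fold change 0.39). Trav13n-1 was 4.79 and 2.97 in CTRL and 2.23 and 1.62 in KO (log2 fold change -0.72, limma adjusted p = 0.0904), and Trav6-1 was 5.23 and 4.78 in CTRL and 2.43 and 4.01 in KO (log2 fold change -0.53). In all 4 the genotypes separated without passing. Trav7n-4 owed its log2 fold change of -0.56 to CTRL 1, with 15.0 FPKM against 3.40 in CTRL 2 and 4.75 and 4.64 in KO.

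Alpha V rows that shared at least 90% of their sequence were low. C57BL/6 mice carry several near-identical copies of many alpha V segments, marked d and n in their names. Of the 111 rows, 44 had at least 90% of their 50-base stretches in another gene, and 1 of them was tested, with a median of 0.175 FPKM over the 44. The 7 rows that shared no stretch had a median of 5.55 FPKM and 6 were tested, and the 34 that shared under 50% had a median of 7.01 FPKM and 33 were tested. The 26 rows that shared from 50% to under 90% were not low, with a median of 5.37 FPKM and 23 tested, among them Trav7-4 (75.1% shared), the most abundant alpha V row. Trav14d-1 and Trav14n-1 were identical over 415 bases, and Trav7-4 and Trav7d-4 differed at 2 of 451 bases. No alpha V row with at least 90% of its sequence shared was thus above 1 FPKM on average, and such rows give no level for the gene they name.

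**Figure D5:**
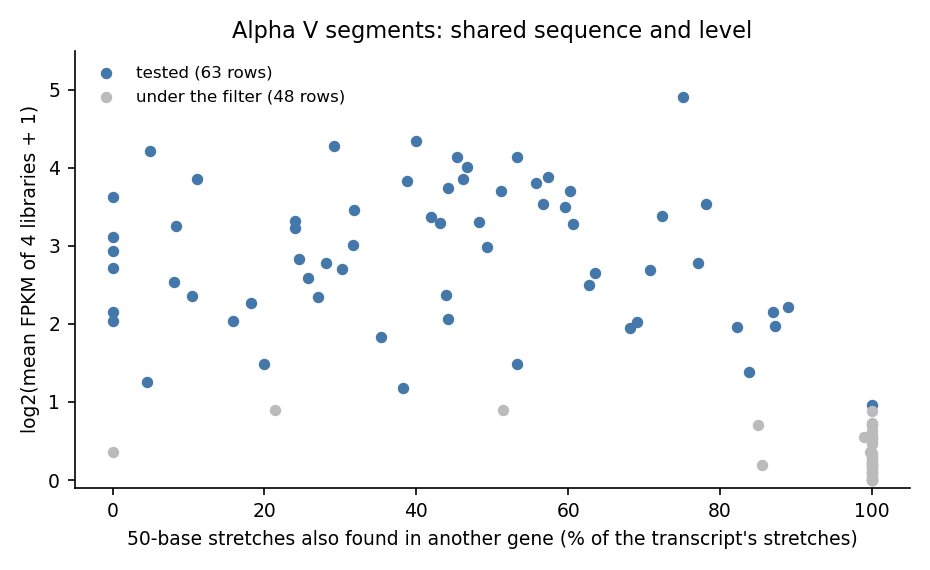
Level of the 111 alpha V segments, as log2 of the mean FPKM of 4 libraries plus 1, against the percentage of their 50-base stretches also found in another gene, for tested rows (blue) and rows under the filter (grey). Rows with at least 90% shared sequence gather near 0, and 1 of these 44 rows was tested, while rows with less sharing span the range.

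Copies of a family differed among themselves to an unequal degree. The 3 copies of Trav7-4 had log2 fold changes from -0.56 to 0.06 and a summed value of -0.06, and the 3 of Trav13-1 had from -0.72 to 0.08 and a summed value of -0.06. The 2 tested copies of Trav9-1, in contrast, were close, at 0.11 and 0.15. Of 14 such families, 0 passed when summed, the lowest limma adjusted p being the 0.0810 of Trav14-3.

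The segments of the invariant receptors differed in level. NKT cells use Trav11 with Traj18, and MAIT cells use Trav1 with Traj33. Trav11 was listed at 0 in all 4 libraries, but 100% of its stretches were shared with another gene, so that its row gives no level for the gene. Traj18 was 13.4 and 16.6 FPKM in CTRL and 6.87 and 16.2 in KO, with the low value in KO 1 alone, and by mean share it ranked 11 of the 41 tested alpha J segments. Trav1, which shared no stretch, was 2.76 and 2.87 in CTRL and 4.27 and 3.91 in KO (log2 fold change 0.42, limma adjusted p = 0.0577), and Traj33 was 1.07 and 2.53 in CTRL and 3.97 and 1.98 in KO. Trav1 and Traj33 were thus low, and Trav1 separated the genotypes while Traj33 did not. Zbtb16, the transcription factor of both cell types, was at or under 0.08 FPKM in every library. Of the beta V segments that these receptors favour, Trbv13-2 and Trbv13-3 are given above, and Trbv29 was not among the 21 beta V rows. Trbv1 had mean FPKM of 74.3 in CTRL and 61.7 in KO, and Trbv19 had 72.7 in CTRL and 60.5 in KO (limma adjusted p = 0.194 and 0.0623).

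Gamma and delta segments were near the limit of detection. The 7 tested had mean FPKM from 1.28 to 4.82 and summed to 22.9 and 21.7 in CTRL and 19.9 and 23.8 in KO, with overlap. Trgj2 was 5.59 and 6.25 FPKM in CTRL and 2.83 and 3.29 in KO (log2 fold change -0.77 ± 0.11, limma adjusted p = 0.0351). It rested on few reads, 11 and 13 in CTRL and 6 and 7 in KO, and was not called in the fit on recovered reads. Trgv2 and Trgj4 went the other way without passing. Trgv2, with the highest fold change of these, was 0.26 and 1.57 in CTRL and 1.62 and 2.50 in KO (log2 fold change 0.75, limma adjusted p = 0.216), and Trgj4 was 2.50 and 2.37 in CTRL and 5.11 and 3.70 in KO (log2 fold change 0.64, limma adjusted p = 0.0591). Trgj1, which shared 48.4% of its 30-base stretches with another gene, was 5.08 and 4.33 in CTRL and 2.83 and 7.05 in KO. Trdv1 was the most abundant delta segment, at 5.25 and 4.20 in CTRL and 4.45 and 4.10 in KO. The markers of gamma delta T cells Sox13 and Cd163l1 were at most 0.73 FPKM in any library, whereas the gamma constant genes were detected. Trgc1 was 8.004 and 8.53 in CTRL and 7.87 and 8.93 in KO (log2 fold change 0.02), Trgc2 was 3.88 and 4.19 in CTRL and 4.73 and 6.22 in KO (log2 fold change 0.35, limma adjusted p = 0.140) and Trgc4 was 4.38 and 3.49 in CTRL and 5.51 and 4.15 in KO (log2 fold change 0.24). The markers of gamma delta T cells, constant genes included, summed to 16.7 and 16.3 FPKM in CTRL and 18.3 and 20.1 in KO, without overlap. Of the 3 tested, 0 passed in limma and 1, Trgc2, was higher at an unadjusted p under 0.05 (16.3% of all genes were). Their part in the results on gamma and delta segments was not tested.

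How FPKM was shared out among segments was compared within each class, and usage here means that share. Whether the reads came from joined receptors was not tested. The effective number of segments (inverse Simpson index, the number of equally used segments that would give the same evenness) was 42.3 and 43.2 in CTRL and 40.4 and 42.03 in KO for alpha V. These did not overlap, but the gap was smaller than the difference between the KO libraries. It was 14.3 and 13.9 in CTRL and 14.5 and 13.5 in KO for beta V, and 10.2 and 10.5 in CTRL and 9.76 and 10.3 in KO for beta J, with overlap in both. For alpha J it was 11.3 and 12.1 in CTRL and 14.1 and 13.6 in KO, so that alpha J FPKM was spread more evenly in the KO libraries, without overlap (exact permutation test, two-sided, p = 0.33, the smallest possible). Traj2 and Traj3 together took 35.5% and 33.3% of alpha J FPKM in CTRL and 30.3% and 29.9% in KO.

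The percentage of a class's usage that differed between 2 libraries was computed for all pairs. For alpha V it was 10.4% and 9.63% within a genotype and 8.84% to 12.2% between genotypes, and for beta V it was 3.83% and 5.62% within and 3.84% to 5.48% between. For alpha J it was 10.2% and 13.0% within and 12.8% to 19.1% between, and for beta J 6.70% and 4.86% within and 3.48% to 10.0% between. The values within and between genotypes thus overlapped in all 4 classes.

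The genes that accompany the receptor were tested in the same fit. Of the 11 tested constant regions, CD3 chains and co-receptors, 0 passed the limma threshold (1 lower and 2 higher at an unadjusted p under 0.05, against 18.4% and 16.3% of all genes), and Cd3g had the lowest fold change, at 573 and 569 FPKM in CTRL and 485 and 519 in KO (log2 fold change -0.19). Cd3e, Cd3d and Cd247, the other signalling chains, had log2 fold changes of -0.03, -0.04 and 0.08. Of the 9 tested genes of recombination and the pre-receptor, 1 passed as higher (5.1% of all genes did), Hmgb2, a DNA-bending protein, at 109 and 92.1 FPKM in CTRL and 148 and 147 in KO (log2 fold change 0.55, limma adjusted p = 0.0379). The median over the 9 was -0.16, and 3 genes of DNA end joining, Xrcc6, Prkdc and Lig4, were lower at an unadjusted p under 0.05 (18.4% of all genes were) without passing, with log2 fold changes of -0.19, -0.35 and -0.43 and limma adjusted p of 0.141, 0.0615 and 0.0704. Rag1 and Rag2, the recombinase, were at or under 0.032 FPKM in every library, Dntt, which adds bases at the joints, was at most 0.48, and Ptcra, the pre-receptor alpha chain, was at most 0.05.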

How the data were processed

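Libraries of oligo(dT)-selected RNA were read as pairs of 150 bp. Per the submitters' processing notes and the methods of the study, the authors mapped reads to mm10 (GRCm38) with HISAT2 2.2.1, counted them per gene with featureCounts 2.0.1 and compared genotypes with edgeR 3.34.0. The values deposited by the authors were FPKM for 24087 rows in 4 libraries, and the control columns, named WT, were read as the CTRL libraries of the same number. The annotation version, strand setting and treatment of multi-mapped reads are not given in the sources used here. The table held FPKM and not counts, so the authors' count test was not used.

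KO was compared with CTRL by limma 3.58.1 (R 4.3.3) (lmFit, then eBayes with a trend on mean level) on log2(FPKM + 1), a scale that understates changes of low genes. The fit held 11399 genes that reached an FPKM of 1 in 2 or more libraries. All its tests were two-sided, with Benjamini-Hochberg adjustment over all genes tested and a threshold of 0.05. No label ties the libraries to separate litters or days, so p measures only the spread between these pools of 2 mice, part of which may be technical. Whole reads were recovered from the steps of the FPKM values for 24067 rows and served as depth and for an alternative test. A factor common to all libraries cannot be seen in these steps. It was settled by length for the segments alone, so recovered reads of other genes may be too low, also in the alternative test. Sequences came from GENCODE vM21, and shared sequence was the percentage of stretches of 50 bases (V) or 30 bases (J) of a transcript found in a transcript of another gene. The fit was also run on simulated data with known changes in randomly picked genes. It was not checked there on short exons with few reads, and no error rate is taken from it. Tables and sequences were handled in Python 3.11.15 with Biopython 1.88, pandas 2.3.3 and numpy 2.4.6.

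Named segments were, by class, the 5 most abundant and the 3 highest and 3 lowest fold changes (3 most abundant for beta J and for gamma or delta), all past the threshold, the segments of invariant receptors, and constant and CD3 genes. The members and lists were chosen with earlier results of these data known. Alternatives were a pseudocount of 0.1, other filters, scalings and variance models, a replicate block, each library left out, copies summed and limma-voom on recovered reads. A minimum of 10 mean reads was added after seeing the data. No column of another series was used. A marker gene is not reported here by name and remains in the sum of its list.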

Additional observations from a re-analysis of the deposited data

How the results depend on the processing

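The 18 lower and 0 higher calls became 0 lower without a filter on low values (0 of all genes higher and 0 lower), 4 lower with limma-voom on recovered reads (1032 of all genes lower), and 4 lower and 3 higher with each segment scaled within its class. Segments called higher were 2 with a mean FPKM above 5, 2 with robust eBayes and 1 with quantile normalization, and without a variance trend 315 of all genes were higher against 581. The replicate block, on numbers that the labels tie to no litter or day (correlation of deviations 0.342 over all genes and 0.235 over the segments), gave 34 lower and 7 higher segments among 805 lower and 968 higher genes, and the 18 were among the 34. Leaving out 1 library gave 0 segments lower, and 0 to 1 of all genes higher and 0 to 1 lower.

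The median log2 fold change of alpha J was -0.26 with a pseudocount of 0.1, -0.45 with a mean FPKM above 5, -0.20 with median-ratio scaling, -0.17 with quantile normalization, -0.23 with equal summed FPKM, -0.26 with limma-voom, -0.43 with at least 10 mean reads (chosen after seeing the data), 0.071 within its class and -0.42 to -0.26 without 1 library. That of beta V was -0.20 with median-ratio scaling, -0.26 with quantile normalization, -0.042 within its class and -0.23 to -0.17 without 1 library. That of beta J was -0.081 within its class, and that of gamma or delta segments -0.77 with a mean FPKM above 5 and -0.23 to 0.25 without 1 library. Beta J segments were below 0 in 13 of 13 under every other setting and in 9 within their class.

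Signs turned for segments that had not passed, and for Trbj2-1. Within the class the log2 fold changes were 0.10 for Trbj2-1, 0.38 for Trbj2-7, 0.085 for Trbv13-1, 0.083 for Trbv2, 0.058 for Trbv3, 0.15 for Trbv31 and 0.090 for Trdv1. Trgj1 was 0.001 with quantile normalization, and Traj7 -0.013 with equal summed FPKM and -0.011 with limma-voom. Without 1 library the range was -1.02 to 0.11 for Traj18, -0.23 to 1.57 for Traj38, -0.17 to 0.17 for Traj7, -0.061 to 0.78 for Trav12-2, -0.17 to 0.028 for Trav14-1, -0.19 to 0.10 for Trav3-3, -0.12 to 0.20 for Trav4-4-dv10, -0.21 to 0.32 for Trav7-4, -1.49 to 0.37 for Trav7n-4, -0.26 to 0.084 for Trbv13-1, -0.27 to 0.034 for Trbv3, -0.11 to 0.058 for Trbv31, -0.24 to 0.021 for Trdv1 and -0.57 to 0.50 for Trgj1. The cause was not tested, beyond what each setting removes by construction. Depth limits the alpha J and gamma or delta segments most, with a median of 14.5 and 15.2 reads.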
